A study of Mus musculus with 12 samples.

Results

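ISG15 conjugation is carried by 5 genes described here, which were chosen by name and role and make up 5 of the 23667 gene symbols in the deposited table. They are Isg15, which encodes the ubiquitin-like modifier itself, Uba7, its activating enzyme (E1), Ube2l6, its conjugating enzyme (E2), Herc6, the main ISG15 ligase (E3) of the mouse, and Usp18, the protease that removes ISG15 from proteins. RNA-seq of polyadenylated RNA was made from mammary tumours grown from 4T1, a mouse mammary carcinoma line, in 4 groups of 3 libraries that the labels describe as 3 different tumours. KO-IgG tumours came from 4T1 cells depleted by CRISPR-Cas9 of TREX1, which degrades cytosolic DNA, in mice given isotype antibodies. KO-ICB tumours came from such depleted cells in mice given checkpoint antibodies, 200 ug of anti-PD1 with 100 ug of anti-CTLA4, 3 times weekly for 1 week. CTRL-IgG tumours came from control cells with isotype antibodies, and CTRL-ICB tumours from control cells with the checkpoint antibodies. The labels do not say whether the depleted line was 1 clone, and give neither strain nor age of the mice. Host cells in these tumours keep their own Trex1. The values are TPM, transcript abundance per length as a share of each library, so they can be compared between genes, but the depth behind them is unknown.

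ISG15 is attached to lysines of other proteins by an E1, E2 and E3 cascade that parallels ubiquitin, and all of its main enzymes are made in response to interferon. In human cells the main ligase is HERC5, a gene that mice lack, and HERC6 takes this role in the mouse. USP18 both removes ISG15 from its targets and binds the receptor subunit IFNAR2, where it dampens type I interferon signalling. Unconjugated ISG15 is also secreted and acts on lymphocytes through the integrin LFA-1. Loss of TREX1 is known to let cytosolic DNA engage the sensor cGAS, which acts through STING to induce type I interferon.

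The promoters are shown because interferon acts on such genes through a DNA element, the interferon-stimulated response element, whose core repeats the letters GAAA. RefSeq promoter windows of 300 bases, 250 before and 50 after the start, were used for 4 of the 5 genes, all but Usp18 (GRCm38.p6). This core, GAAA followed after any 2 bases by another GAAA, was searched on both strands and lies in 3.44% of the 32851 RefSeq windows. The Isg15 window holds 3 overlapping copies, whose first bases lie at -78, -72 and -66, counted with -1 as the base just before the start. Uba7 holds none, but holds the shorter AAANNGAAA once, at -27 on the opposite strand, a motif searched after the letters had been seen and present in 10.6% of windows. The stretches below run 5′ to 3′ in the direction of each gene, with the matched bases in capitals. That of Isg15 is the minus strand of chr4:156200819-156200938 and ends at the start site, and that of Uba7 is the plus strand of chr9:107975529-107975558, within an exon of other annotated Uba7 transcripts.
Isg15: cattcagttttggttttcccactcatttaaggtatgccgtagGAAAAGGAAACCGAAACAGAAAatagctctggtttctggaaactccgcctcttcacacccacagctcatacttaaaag
Uba7: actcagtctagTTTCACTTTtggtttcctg
Neither of these motifs was found in the windows of Ube2l6 and Herc6. A match is only a run of letters, and a window without one says nothing of sites elsewhere.

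The genes lie on chromosome 4 (Isg15, 156199424 to 156200818, minus strand), chromosome 9 (Uba7, 107975505 to 107984060, plus strand), chromosome 2 (Ube2l6, 84798828 to 84810335, plus strand) and chromosome 6 (Herc6, 57581000 to 57664632, and Usp18, 121245906 to 121270917, both plus strand) of GRCm38 in the GENCODE M21 annotation. Genes that overlap them were low where they were in the table. Gm20661, on the strand of Uba7, reached at most 0.397 TPM, and Gm19244, a pseudogene opposite Herc6, at most 3.00 TPM. Gm45193, on the strand of Herc6, and Gm44148, opposite Usp18, were not in the table under these names, so their levels are unknown.

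Several libraries stood apart before any comparison. KO-IgG replicates 2 and 3 were nearly identical (robust SD of their log2 ratio 0.0618 over genes above 300 TPM) and KO-ICB replicates 1 and 2 nearly so as well (0.0381), while the other 10 within-group pairs gave 0.218 to 0.699. Each such pair was averaged and counted once, which leaves 10 samples, 4 KO and 6 CTRL, and values over the 12 libraries are given beside them. Over the 12 libraries each such pair counts as 2 separate tumours. If the libraries of a pair are not independent, p-values over the 12 libraries are too small and their counts of called genes too high. Replicate 1 of KO-IgG held 0.661 TPM of Epcam, a surface marker of the epithelial 4T1 cells, where replicates 2 and 3 held 1101 and 1087 TPM. The Epcam values were 1239, 1232 and 1195 TPM in KO-ICB, 1113, 87.1 and 602 TPM in CTRL-IgG, and 602, 701 and 652 TPM in CTRL-ICB. Ptprc, which encodes the leukocyte antigen CD45, had 61.3, 19.6 and 21.3 TPM in KO-IgG, 28.1, 28.0 and 22.9 TPM in KO-ICB, 34.3, 29.2 and 18.3 TPM in CTRL-IgG, and 24.8, 31.7 and 22.7 TPM in CTRL-ICB. Replicate 1 of KO-IgG was thus the lowest of the 12 libraries in Epcam and the highest in Ptprc. Trex1 itself was higher where the label says TREX1 KO, with 56.0 to 72.2 TPM in KO-labelled libraries against 32.8 to 46.2 TPM in CTRL libraries (log2 fold change 0.61 ± 0.16, SE; limma adjusted p = 0.18). Its transcript level thus gives no check of the depletion, and these tumours are called KO-labelled below.

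Across both antibody treatments, all 5 genes had a higher mean in KO-labelled than in CTRL tumours, and 1 of them, Uba7, passed the test over all genes. It did so as 1 of the 15 genes called (0.108% of 13886 tested; 0.072% were called higher), by limma with a Benjamini-Hochberg adjusted p under 0.05. The median log2 fold change of the 5 genes was 0.76, against -0.028 over all genes tested, of which 46.2% were positive. In bulk tumours, more or fewer cells of a type and more or less RNA per cell cannot be told apart.

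**Figure D1:**
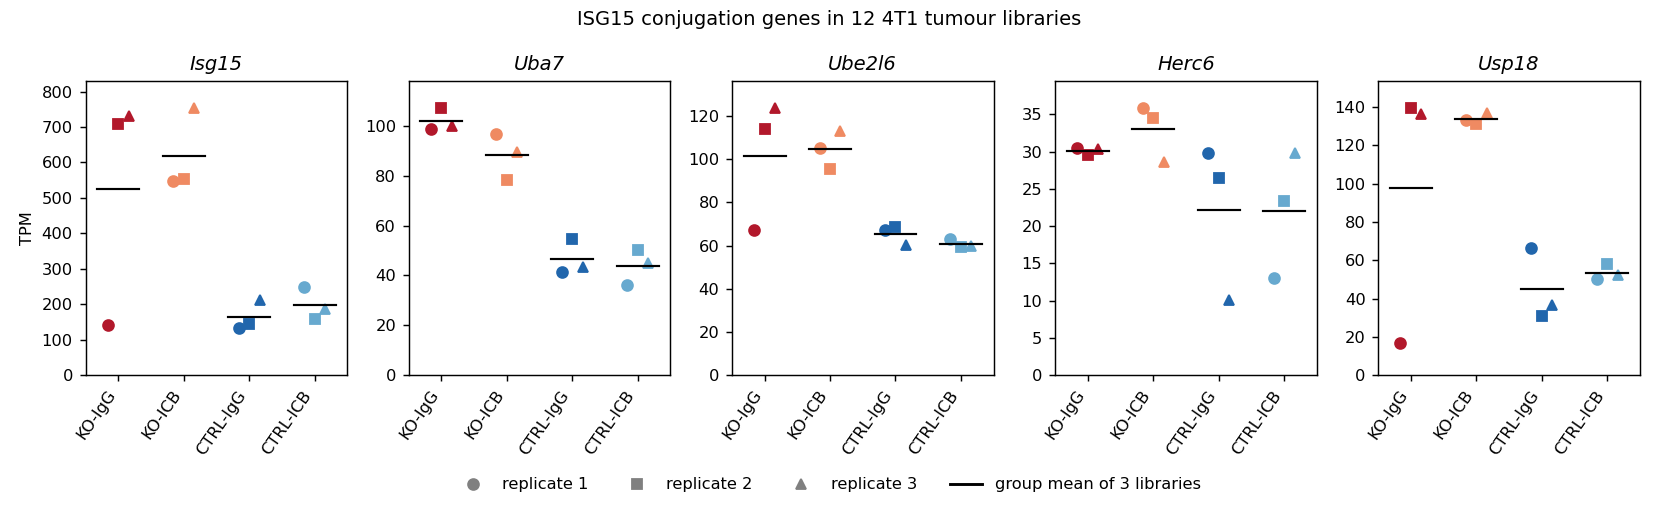
TPM (linear axis from 0) of Isg15, Uba7, Ube2l6, Herc6 and Usp18 in the 12 libraries, by group, with KO groups left of CTRL groups, marker shapes for the replicate number and a line at the mean of the 3 libraries. All 6 KO libraries lie above all 6 CTRL libraries for Uba7, while KO-IgG replicate 1 lies among or below the CTRL libraries for Isg15, Ube2l6 and Usp18.

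Isg15, the modifier, was the most abundant of the 5 genes in every library. Its TPM values were 140.2, 709 and 730.3 in KO-IgG (replicates 1, 2 and 3) and 548, 553 and 754 in KO-ICB, against 132, 143 and 213 TPM in CTRL-IgG and 248, 158 and 186 TPM in CTRL-ICB. All KO-labelled libraries but KO-IgG replicate 1 were above every CTRL library, and that one lay within the CTRL range, so the groups overlap. On average KO-labelled tumours held 541 ± 282 TPM (SD, n = 4) and CTRL tumours 180.1 ± 44.6 TPM (SD, n = 6). The log2 fold change was 1.36 ± 0.40 (SE), a 2.57-fold higher level with a 95% interval of 0.47 to 2.25 on the log2 scale, and did not pass the limma test over all genes (adjusted p = 0.234). Over the 12 libraries it was 1.52 ± 0.36 and passed (limma adjusted p = 0.0474). The exact two-sided permutation test of the TPM difference of 361 gave p = 0.0286, and p = 0.0714 when KO-IgG replicates 2 and 3, KO-ICB replicates 1 and 2, or KO-ICB replicate 3 were left out. Without KO-IgG replicate 1 the log2 fold change was 1.95 (limma adjusted p = 0.0142), with a KO mean of 675 ± 109 TPM (SD, n = 3).

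Uba7, the E1 that activates ISG15 and hands it to UBE2L6, was the gene whose groups were fully apart. The 3 KO-IgG libraries held 98.6, 107 and 100.04 TPM and the KO-ICB libraries 96.7, 78.3 and 89.4 TPM, against 41.2, 54.7 and 43.3 TPM in CTRL-IgG and 36.1, 50.1 and 44.9 TPM in CTRL-ICB. Each of the 4 KO samples was above each of the 6 CTRL samples, a pattern that 2.05% of all genes tested share. Uba7 rose by 1.07 ± 0.15 on the log2 scale (SE; 95% interval 0.74 to 1.39), a 2.09-fold difference, with a limma adjusted p of 0.0422. The means were 94.8 ± 7.65 TPM in KO-labelled tumours (SD, n = 4) and 45.0 ± 6.59 TPM in CTRL tumours (SD, n = 6), and the exact two-sided permutation p of 0.00476 was the smallest that 210 splits can give. KO-IgG replicate 1 was no exception here: without it the log2 fold change was 1.08 (limma adjusted p = 0.0236). When any other of the 10 samples was left out, the log2 fold change was 1.00 to 1.13 but the limma adjusted p was 0.0512 to 0.26. The call was also lost over the full 10 samples with no filter on low genes (limma adjusted p = 0.0581), without trend and robust shrinkage (0.0570), with median centring (0.0614) and with quantile normalization (0.0622), at log2 fold changes of 1.07 to 1.13.

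Ube2l6, the E2 that takes ISG15 from UBA7, differed less. Values were 67.1, 114 and 124 TPM in KO-IgG and 105, 95.4 and 113 TPM in KO-ICB, against 67.4, 68.6 and 60.2 TPM in CTRL-IgG and 62.9, 59.5 and 60.0 TPM in CTRL-ICB. The CTRL libraries were tightly grouped, and KO-IgG replicate 1 was the KO-labelled library inside their range. The means were 99.9 ± 23.3 TPM in KO-labelled tumours (SD, n = 4) and 63.1 ± 3.98 TPM in CTRL tumours (SD, n = 6). The log2 fold change of 0.62 ± 0.17 (SE; 95% interval 0.25 to 1.00) did not pass over all genes (limma adjusted p = 0.198), while the exact two-sided permutation test of the single gene gave p = 0.0143. It passed over the 12 libraries (0.68 ± 0.14, limma adjusted p = 0.0299) and without KO-IgG replicate 1 (0.83, limma adjusted p = 0.0236). Ube2l3, the closely related E2 that works with ubiquitin, stood at 100.1 to 142 TPM in KO-labelled and 91.7 to 139 TPM in CTRL libraries, with a log2 fold change of 0.041 ± 0.14.

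Herc6, the ligase, was the least abundant of the 5 genes in every library but KO-IgG replicate 1. KO-IgG libraries held 30.4, 29.6 and 30.3 TPM and KO-ICB libraries 35.9, 34.5 and 28.6 TPM, against 29.9, 26.5 and 10.1 TPM in CTRL-IgG and 13.05, 23.3 and 29.9 TPM in CTRL-ICB. The KO-labelled libraries were close to each other, and the CTRL libraries ranged from a level close to theirs down to 10.1 TPM. The log2 fold change was 0.57 ± 0.32 (SE; 95% interval -0.14 to 1.28; limma adjusted p = 0.538), and the exact two-sided permutation test gave p = 0.0762. Over the 12 libraries the permutation test gave p = 0.0173 and limma an adjusted p of 0.225.

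Usp18, the ISG15 protease, was at nearly the same level in 5 KO-labelled libraries and far from it in the other. KO-IgG libraries held 16.8, 139.7 and 137 TPM and KO-ICB libraries 133, 131 and 137 TPM, against 66.5, 31.0 and 36.9 TPM in CTRL-IgG and 50.3, 58.2 and 52.2 TPM in CTRL-ICB. KO-IgG replicate 1 was thus below every CTRL library, and the other KO-labelled libraries were above every CTRL library. The means of 106 ± 59.6 TPM in KO-labelled tumours (SD, n = 4) and 49.2 ± 13.2 TPM in CTRL tumours (SD, n = 6) gave a log2 fold change of 0.76 ± 0.49 (SE; 95% interval -0.34 to 1.86; limma adjusted p = 0.602). The exact two-sided permutation p was 0.0524. Without KO-IgG replicate 1 the KO mean was 136 ± 3.06 TPM (SD, n = 3), the log2 fold change 1.50 and the limma adjusted p 0.0242.

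In all, 3 of the 5 genes passed over the 12 libraries (Isg15, Uba7 and Ube2l6), where 3.23% of all genes were called and 1.94% were called higher in KO-labelled tumours. The libraries of each near-identical pair are counted there as separate tumours. Without KO-IgG replicate 1, 4 of the 5 passed, all but Herc6, where 1.97% of all genes were called and 1.12% higher. When any other single sample was left out, none of the 5 passed. Leaving out KO-IgG replicate 1 also leaves that group with the averaged pair as its only sample. For Isg15, Ube2l6 and Usp18 it removes the only KO sample that was not above every CTRL sample, so their groups no longer overlap by construction. In the order of their mean level, KO-labelled tumours had Isg15 first (541 TPM), then Usp18 (106), Ube2l6 (99.9) and Uba7 (94.8), which differ by less than their spread, and Herc6 last (31.0). In CTRL tumours Isg15 (180.1 TPM) was followed by Ube2l6 (63.1), then Usp18 (49.2) and Uba7 (45.0), which differ by less than their spread, and Herc6 (22.1).

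In KO-IgG replicate 1 the 5 genes split, with Uba7 at the level of the other KO-labelled libraries, and Isg15, Ube2l6 and Usp18 at or below that of CTRL libraries. Herc6, at 30.4 TPM there, falls on neither side. The other KO-labelled libraries held 28.6 to 35.9 TPM of it, and CTRL libraries up to 29.9 TPM. Ifng, which encodes interferon gamma, stood at 7.58 TPM in that library, 6.26 to 8.21 TPM in the other KO-labelled libraries and 1.37 to 2.77 TPM in CTRL libraries. Irf7, a transcription factor of the type I interferon response, stood at 81.2 TPM there, 319 to 392 TPM in the other KO-labelled libraries and 87.2 to 113 TPM in CTRL libraries. Uba7 and Ifng were thus high in that library and Irf7 was not. Ifnb1, which encodes a type I interferon, stood at 0.934 TPM there. It was at 0 to 0.444 TPM in the other KO-labelled libraries and 0 to 0.381 TPM in CTRL libraries. These Ifnb1 values are all under 1 TPM and were not tested. Its summed TPM over 7 markers of 4T1 epithelium was 1481, against 4971 to 5523 in the other KO-labelled libraries and 2042 to 4910 in CTRL libraries. Its summed T cell markers came to 148 TPM, where the other KO-labelled libraries had 56.4 to 59.5 TPM and 23.7 to 44.5 TPM was found in CTRL libraries. Its 7 macrophage markers summed to 4270 TPM, while 1853 to 2065 TPM was found in the other KO-labelled libraries and 881.5 to 2699 TPM in CTRL libraries. The part of these cell type markers in the split was not tested.

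**Figure D2:**
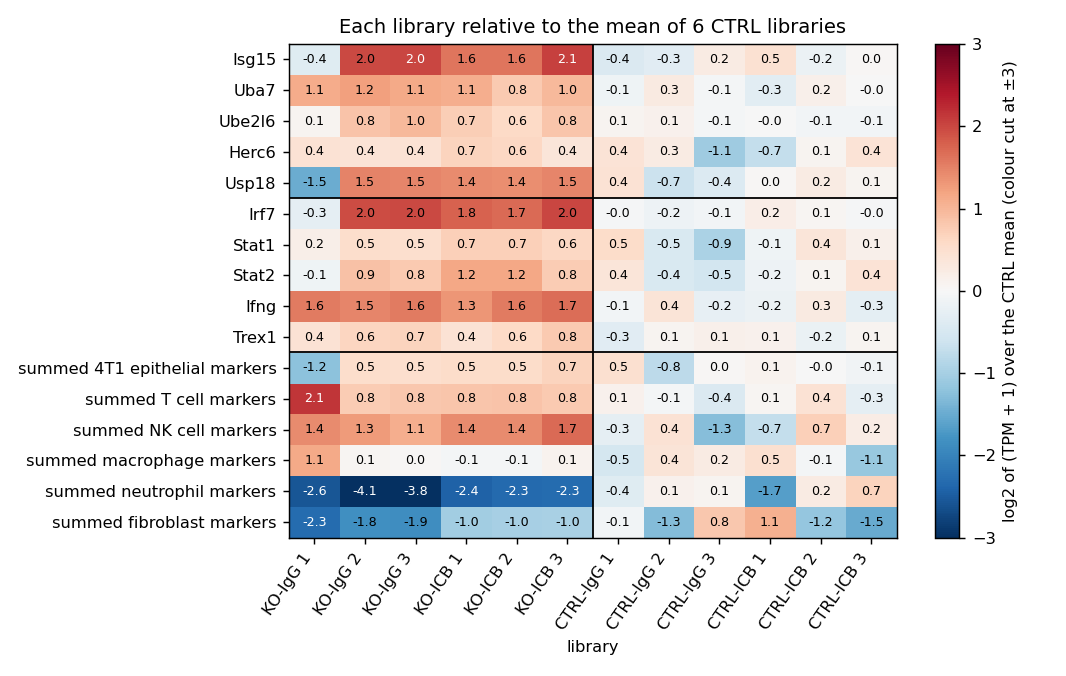
Heat map of log2 of (TPM + 1) over the CTRL mean for the 5 genes, for 5 other genes and for summed markers of 6 cell types (rows) in the 12 libraries (columns, KO left of CTRL), with the value printed in each cell and colour limited to ±3. In KO-IgG 1, Usp18 is at -1.5 and Isg15 at -0.4 while Uba7 and Ifng are at 1.1 and 1.6; in the other KO columns Usp18 and Isg15 are at 1.4 or more.

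Other cell types also differed between KO-labelled and CTRL tumours. Summed NK cell markers were 81.8 to 126 TPM in KO-labelled and 15.0 to 62.9 TPM in CTRL libraries, and summed T cell markers did not overlap either. Of these lists, 0 of 6 markers each passed the limma test over 10 samples, although all 6 of each had an unadjusted p under 0.05, as did 11.5% of all genes tested (1602 of 13886). Neutrophil markers summed to 32.1 to 115 TPM in KO-labelled and 181 to 902 TPM in CTRL libraries, and 0 of 6 had a positive log2 fold change. Of these 6, 5 had an unadjusted p under 0.05, and 2, S100a8 and Il1r2, were called lower by limma, where 0.108% of all genes were called. Retnlg was at 0 in 1 library. Dendritic cell markers summed to 6.22 to 23.3 TPM in KO-labelled and 5.45 to 6.99 TPM in CTRL libraries, and leukocyte markers to 535 to 1163 TPM in KO-labelled and 405 to 780.5 TPM in CTRL libraries. Fibroblast markers summed to 302 to 759 TPM in KO-labelled and 525 to 3124 TPM in CTRL libraries. Keratinocyte markers summed to 3.59 to 367 TPM in KO-labelled and 65.4 to 4613 TPM in CTRL libraries, with Krt1, Flg2, Lor and Krt5 at 0 in at least 1 library. Skeletal muscle markers summed to 8.60 to 72.5 TPM in KO-labelled and 6.59 to 27.4 TPM in CTRL libraries, highest in KO-ICB, with Acta1 and Myh4 at 0 in 3 libraries each. The part of these markers in the differences of the 5 genes was not tested.

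Within each antibody treatment the 5 genes were also higher on average in KO-labelled tumours, and none passed over 10 samples. In KO-IgG against CTRL-IgG, 0 of the 5 genes and 0% of all genes were called by limma, with an unadjusted p under 0.05 for 1 of the 5 (Uba7) and for 715 genes in all. Uba7 averaged 101 ± 3.55 TPM in KO-IgG (SD, n = 2) and 46.4 ± 7.25 TPM in CTRL-IgG (SD, n = 3), a log2 fold change of 1.12 ± 0.21 (SE; limma adjusted p = 0.392), and it passed over the 12 libraries (limma adjusted p = 0.0397), where 0.115% of all genes were called and 0.0432% higher. The log2 fold changes of Isg15, Ube2l6, Herc6 and Usp18 were 0.99 ± 0.56, 0.45 ± 0.24, 0.56 ± 0.45 and 0.20 ± 0.69, with 95% intervals that include 0. Without KO-IgG replicates 2 and 3, which leaves replicate 1 as the only KO-IgG sample, Isg15 was at -0.18 and Usp18 at -1.28, and without CTRL-IgG replicate 2 Usp18 was at -0.020.

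In KO-ICB against CTRL-ICB, where no KO-labelled library stood apart in Epcam, 0 of the 5 genes and 0.0072% of all genes (1 gene) were called by limma, and 3 of the 5 and 1108 genes in all had an unadjusted p under 0.05. Isg15 averaged 653 ± 144 TPM in KO-ICB (SD, n = 2) and 197 ± 46.2 TPM in CTRL-ICB (SD, n = 3), and its log2 fold change of 1.73 ± 0.56 (SE) had a 95% interval of 0.47 to 2.98. Uba7 averaged 88.4 ± 1.40 TPM in KO-ICB and 43.7 ± 7.10 TPM in CTRL-ICB, with a log2 fold change of 1.01 ± 0.21 and an interval of 0.55 to 1.47. Ube2l6 averaged 107 ± 9.27 TPM in KO-ICB and 60.8 ± 1.84 TPM in CTRL-ICB, with a log2 fold change of 0.80 ± 0.24 and an interval of 0.27 to 1.33. These 3 intervals exclude 0 for the single gene, but the limma adjusted p-values over all genes were 0.509, 0.263 and 0.442. Usp18 averaged 135 ± 3.33 TPM in KO-ICB and 53.6 ± 4.13 TPM in CTRL-ICB, and its log2 fold change of 1.32 ± 0.69 had an interval of -0.23 to 2.87, from a spread estimated over all 4 groups. With only the groups compared, Isg15 and Usp18 passed (limma adjusted p = 0.0482 and 0.0383), where 0.533% of all genes were called and 0.41% higher. Over the 12 libraries 1 of the 5, Uba7, passed, where 0.288% of all genes were called and 0.202% higher. Herc6 averaged 31.9 ± 4.67 TPM in KO-ICB and 22.1 ± 8.47 TPM in CTRL-ICB, with a log2 fold change of 0.58 ± 0.45.

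**Figure D3:**
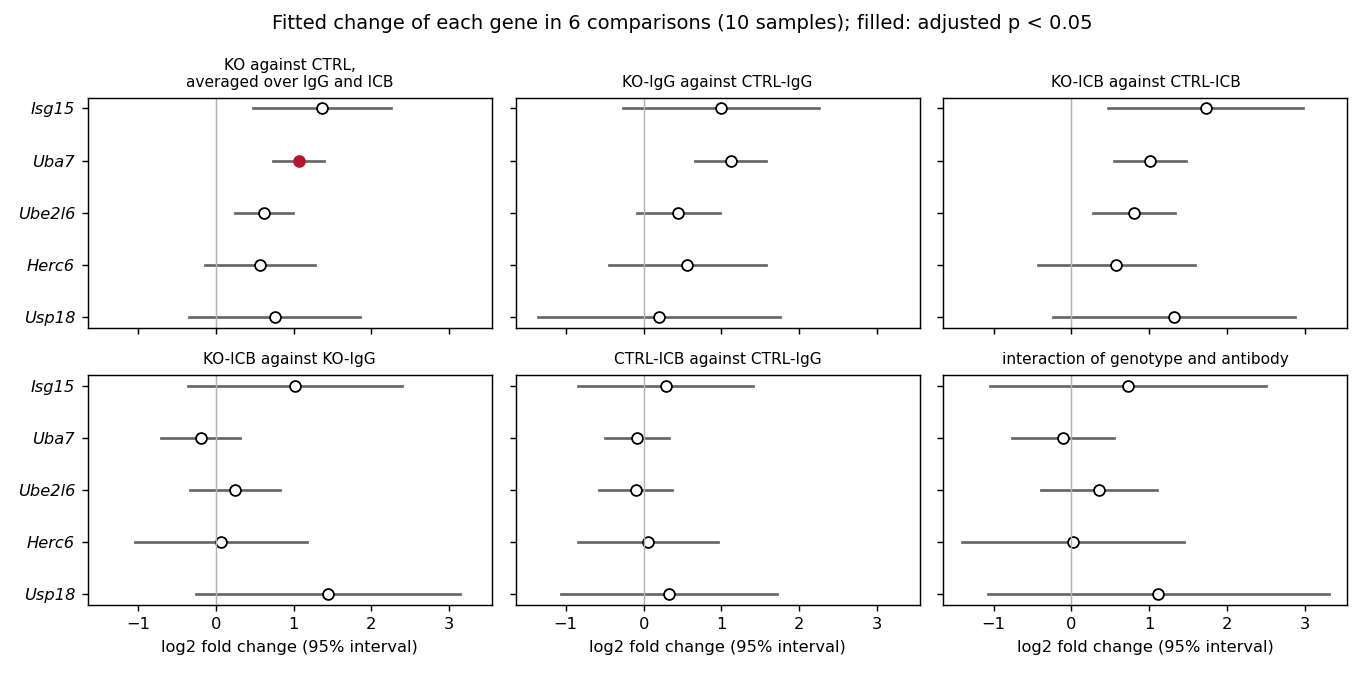
Log2 fold change of each of the 5 genes with its 95% interval in the 6 comparisons fitted over 10 samples, where a filled red point marks an adjusted p under 0.05. Uba7 in the averaged comparison of KO with CTRL is the filled point, at 1.07, and all intervals of the antibody comparisons and of the interaction include 0.

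The checkpoint antibodies were not followed by a detectable change of these genes in either genotype. In KO-ICB against KO-IgG, 0 of the 5 genes and 0% of all genes were called by limma, and 0 of the 5 and 443 genes had an unadjusted p under 0.05. The log2 fold changes were 1.02 ± 0.61 for Isg15, -0.19 ± 0.23 for Uba7, 0.25 ± 0.26 for Ube2l6, 0.070 ± 0.49 for Herc6 and 1.45 ± 0.75 for Usp18 (SE). Those of Isg15, Ube2l6 and Usp18 were -0.16, -0.16 and -0.036 without KO-IgG replicate 1, so their sign rests on that library. For Uba7, which that library did not move, the 95% interval of -0.70 to 0.31 is the narrowest of the 5.

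In CTRL-ICB against CTRL-IgG, 0 of the 5 genes and 0% of all genes were called by limma, and 0 of the 5 and 176 genes had an unadjusted p under 0.05. Uba7 averaged 43.7 ± 7.10 TPM in CTRL-ICB and 46.4 ± 7.25 TPM in CTRL-IgG, a log2 fold change of -0.086 with an interval of -0.50 to 0.33. Ube2l6 averaged 60.8 ± 1.84 TPM in CTRL-ICB and 65.4 ± 4.50 TPM in CTRL-IgG, a log2 fold change of -0.10 with an interval of -0.57 to 0.37. Isg15, Herc6 and Usp18 had log2 fold changes of 0.28 ± 0.50, 0.054 ± 0.40 and 0.33 ± 0.62. The sign of Uba7 and of Herc6 turned when single CTRL tumours were left out. The interaction of genotype and antibody was 0.73 ± 0.79 for Isg15, -0.10 ± 0.29 for Uba7, 0.35 ± 0.34 for Ube2l6, 0.016 ± 0.64 for Herc6 and 1.12 ± 0.97 for Usp18, and neither any of these nor any other gene passed (0%, limma; 196 genes with an unadjusted p under 0.05, 0 of them among the 5). A difference in the antibody response between genotypes was thus not detectable with these samples.

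The balance between the modifier and its enzymes was compared as a ratio within each library, which does not depend on how a library is scaled. Isg15 made up 39.7, 64.5 and 65.1% of the summed TPM of the 5 genes in KO-IgG and 59.6, 62.0 and 67.2% in KO-ICB, against 39.2, 44.2 and 58.6% in CTRL-IgG and 60.5, 45.3 and 49.8% in CTRL-ICB. KO-labelled libraries other than KO-IgG replicate 1 were therefore mostly at or above the highest CTRL libraries, with an overlap. The summed TPM of the 5 genes was 353 in KO-IgG replicate 1, 893 to 1123 in the other KO-labelled libraries, and 324 to 411 in CTRL libraries.

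For each TPM of Isg15 there was 0.478, 0.161 and 0.17 TPM of Ube2l6 in KO-IgG replicates 1, 2 and 3, and 0.192, 0.172 and 0.15 in KO-ICB, against 0.51, 0.479 and 0.283 in CTRL-IgG and 0.253, 0.376 and 0.323 in CTRL-ICB. All KO-labelled libraries but KO-IgG replicate 1 were below every CTRL library. On the log2 scale of (TPM + 1) the Ube2l6 to Isg15 ratio averaged -2.20 ± 0.77 in KO-labelled tumours (SD, n = 4) and -1.47 ± 0.40 in CTRL tumours (SD, n = 6), with an exact two-sided permutation p of 0.081. Over the 12 libraries the exact permutation p was 0.0238, and without KO-IgG replicate 1 the KO mean was -2.59 ± 0.14 and the exact permutation p 0.0119. That p is the smallest that 84 splits can give, and it was reached by leaving out the only KO sample within the CTRL range.

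The Uba7 to Isg15 ratio averaged -2.25 ± 1.18 in KO-labelled tumours and -1.95 ± 0.50 in CTRL tumours on the same scale, with an exact two-sided permutation p of 0.61 (n = 4 and 6). Without KO-IgG replicate 1, where Uba7 was 0.703 of Isg15, the KO mean was -2.83 ± 0.21 and the exact permutation p 0.0357 (n = 3 and 6). The Herc6 to Isg15 ratio averaged -3.83 ± 1.15 in KO-labelled and -3.04 ± 0.93 in CTRL tumours, and the Usp18 to Isg15 ratio -2.46 ± 0.39 in KO-labelled and -1.86 ± 0.57 in CTRL tumours. Their exact two-sided permutation p-values were 0.295 and 0.119. None of the 4 ratios passed 0.05 over the 10 samples, and these p-values are not adjusted for the 4 tests.

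**Figure D4:**
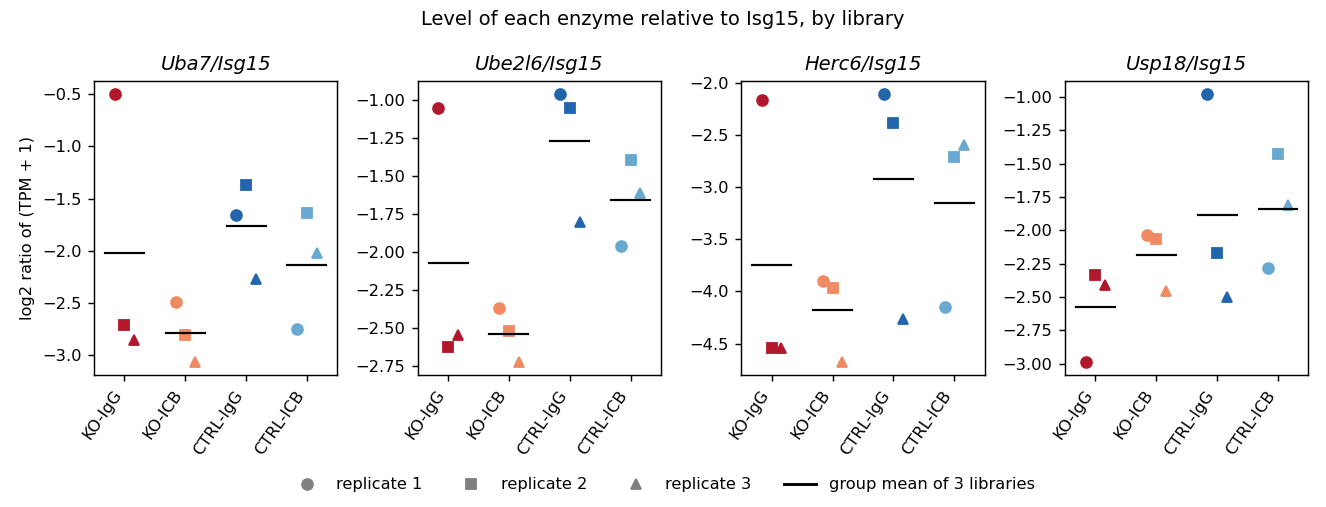
Log2 ratio of (TPM + 1) of each enzyme to Isg15 in the 12 libraries, with KO groups left of CTRL groups and a line at the mean of 3 libraries. For Uba7 and Ube2l6, KO-IgG replicate 1 lies far above the other KO libraries, at -0.50 and -1.05, and the other KO libraries lie at or below -2.37.

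Genes with a similar pattern over the 10 samples were ranked by Pearson's r of log2(TPM + 1), as a description: the samples share their groups, and KO-IgG replicate 1 weighs on every value. Closest to Isg15 were Irf7 (r = 0.975), Col9a1 (0.97), Ifi27l2a (0.97), Pipox (0.969) and Ifi35 (0.968). Closest to Uba7 were Ifng (r = 0.975), Rprm (0.95), Tnfsf4 (0.947), Utp23 (0.945) and Phkg2 (0.945). The lists of the modifier and of its E1 thus share no gene, which is not particular to them. The lists of the other members, given next, share no gene with these or with each other either.

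Closest to Ube2l6 were Ifit3 (r = 0.991), Ifi208 (0.981), Oasl1 (0.979), Rp9 (0.971) and Dusp28 (0.97), all over 10 samples. Closest to Herc6 were Il15 (r = 0.971), Msh4 (0.96), BC048403 (0.942), Wsb1 (0.942) and Zfp638 (0.93). Closest to Usp18 were Gas8 (r = 0.976), Cldn7 (0.972), Tkfc (0.969), Acadl (0.966) and Ifi44 (0.966). Cldn7, a claudin of epithelial junctions, is among the 7 markers of 4T1 epithelium used above.

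Among the 5 genes themselves, r with Isg15 over the 10 samples was 0.911 for Ube2l6, 0.832 for Usp18, 0.611 for Uba7 and 0.193 for Herc6. After the 4 group means were taken out, r with Isg15 was 0.857 for Ube2l6, 0.789 for Usp18, -0.11 for Uba7 and -0.38 for Herc6. The high values for Ube2l6 and Usp18 came from the KO-IgG group, where replicate 1 was low and the average of replicates 2 and 3 high in all 3 genes. Without that group, r over the other 8 samples was -0.020 for Ube2l6, -0.38 for Usp18, -0.52 for Uba7 and -0.88 for Herc6, a comparison added after the values were seen. With the deviations of the other 3 groups pooled, none of the 4 genes thus had a positive r with Isg15. Pooling gives no value for a single group. In CTRL-IgG, for example, replicate 3 had the highest Isg15 and the lowest Ube2l6 and Herc6. In CTRL-ICB, replicate 1 had the highest Isg15 and Ube2l6 and the lowest Uba7, Herc6 and Usp18. In KO-ICB, replicate 3 was above the average of replicates 1 and 2 in every one of these genes but Herc6. These values carry no test.

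Other genes of the ISG15 pathway did not pass. Of 14 other ligases, proteases, receptor subunits and partners of USP18, 13 were tested in the averaged comparison of KO-labelled with CTRL tumours, 6 had a positive log2 fold change and 0 were called by limma (1 at an unadjusted p under 0.05, against 11.5% of all genes; 0 over the 12 libraries), with a median of -0.051. The 3 with the smallest p were Stat2, a partner of USP18 and part of the type I interferon signal (0.70 ± 0.25, limma adjusted p = 0.332), Usp16, another protease reported to cleave ISG15 (0.34 ± 0.16, 0.459), and Arih1, another ISG15 ligase (-0.44 ± 0.34, 0.662).

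Of 24 proteins reported to carry ISG15, all were tested, 13 were positive and 0 were called by limma (6 at an unadjusted p under 0.05, where 11.5% of all genes were), with a median of 0.076. Mapk3, the kinase ERK1, was at 78.8 to 114 TPM in KO-labelled and 126 to 168 TPM in CTRL libraries, a log2 fold change of -0.65 ± 0.14 (limma adjusted p = 0.131). Mx1, an antiviral GTPase, was at 10.3 to 40.1 TPM in KO-labelled and 5.37 to 10.01 TPM in CTRL libraries (1.37 ± 0.30, limma adjusted p = 0.144). Ifit3, an interferon-induced antiviral protein, was at 25.2 to 92.7 TPM in KO-labelled and 19.6 to 29.7 TPM in CTRL libraries (1.26 ± 0.30, limma adjusted p = 0.162). Over the 12 libraries these 3 and no other of the 24 passed, Mapk3 lower and Mx1 and Ifit3 higher. In that fit 3.23% of all genes were called and 1.94% higher, with the libraries of each near-identical pair counted as separate tumours.

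Of 10 genes that carry the interferon signal to these promoters, 7 were positive and 0 were called by limma (4 at an unadjusted p under 0.05, against 11.5% of all genes), with a median of 0.22. The 3 with the smallest p were Irf7 (1.36 ± 0.35, limma adjusted p = 0.18), Stat2, given above, and Irf1, a transcription factor induced by interferon gamma (0.38 ± 0.17, limma adjusted p = 0.426). Irf7 passed over the 12 libraries (1.53, limma adjusted p = 0.0296), where 3.23% of all genes were called. Of 10 interferon genes, 7 were in the table and 1, Ifng, was high enough to be tested: it rose by 1.57 ± 0.22 on the log2 scale (limma adjusted p = 0.0422). The other 6, Ifnb1 among them, were at 0.96 TPM or less in every library.

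The enzymes of other ubiquitin-like modifiers were examined as the nearest counterparts, and 0 of them were called by limma over the 10 samples. Of 14 ubiquitin genes, 5 were positive, with a median of -0.040 and 1 unadjusted p under 0.05. The 3 with the smallest p were Ube2d3, an E2 (-0.65 ± 0.20, limma adjusted p = 0.248), Ubb, a ubiquitin precursor (0.27 ± 0.13, 0.468), and Uba6, an E1 (-0.48 ± 0.29, 0.575). Of 15 SUMO genes, 6 were positive, with a median of -0.13 and 0 unadjusted p under 0.05, led by the ligase Pias3 (-0.35 ± 0.17, limma adjusted p = 0.477) and the E1 subunits Uba2 (-0.26 ± 0.13, 0.501) and Sae1 (-0.25 ± 0.17, 0.616).

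Of 9 NEDD8 genes, 4 were positive, with a median of -0.012 and 1 unadjusted p under 0.05. They were led by Dcun1d1, which assists the ligase step (-0.77 ± 0.25, limma adjusted p = 0.28), and the E2 genes Ube2m (-0.21 ± 0.13, 0.585) and Ube2f (0.29 ± 0.21, 0.635). Of 8 UFM1 genes, 4 were positive, with a median of -0.026 and 1 unadjusted p under 0.05, led by the modifier Ufm1 (-0.71 ± 0.16, limma adjusted p = 0.16), its ligase Ufl1 (-0.52 ± 0.25, 0.462) and the protease Ufsp1 (-0.47 ± 0.28, 0.559). Over the 12 libraries, where 3.23% of all genes were called, Ube2d3 and Ufm1 passed, both lower in KO-labelled tumours. The medians of these lists lie near the -0.028 of all genes tested, and the 0.76 of the ISG15 genes was not compared with them by a test.

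**Figure D5:**
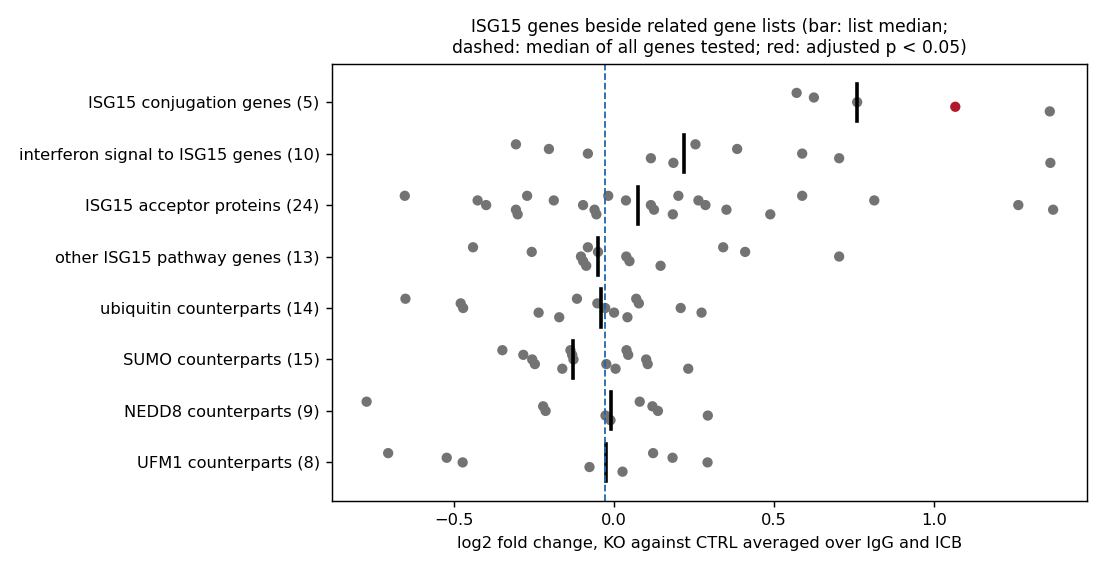
Log2 fold change, KO against CTRL averaged over both antibody treatments (10 samples), of each gene (points) in the ISG15 genes and in 7 related lists, with the number of genes tested in brackets, a bar at the list median and a dashed line at the median of all genes tested. All 5 ISG15 genes lie above 0.5, and Uba7, in red, is the 1 gene drawn with an adjusted p under 0.05.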

How the data were processed

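The authors deposited TPM for 23667 gene symbols in 12 libraries. The submitters' processing notes name kallisto and the build GRCm38. No source used here gives the version, the transcript set or the use of strand. Every column sums to 1000000, so depth, counting intervals and count tests are not possible, and a large change of a few transcripts shifts all others. Per the labels, each library is another tumour.

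Libraries were grouped by their titles, and the near-identical pairs were averaged. Where nothing else is said, p-values measure the spread between the 10 samples. The 13886 genes that reached 1 TPM in 3 or more libraries were fitted on log2(TPM + 1), so fold changes of low genes are understated, with 4 group means in limma 3.58.1 (R 4.3.3), an intensity trend and robust shrinkage. The Benjamini-Hochberg adjustment ran over all genes within each of 6 comparisons, with a threshold of 0.05, and the models were tested on simulated data. For single genes and ratios, permutation tests were exact and two-sided (scipy 1.17.1). Promoters came from RefSeq (GRCm38.p6) and coordinates from GENCODE M21; 1 further promoter motif was searched and is not reported here. The 5 genes and the other lists were chosen with earlier results of these data known. Named genes are the 5, the genes called in each other list (or the 3 with the smallest p), the 5 closest genes in pattern, Epcam and Ptprc, but in cell type lists only called genes are named, a limit set after the values were seen. Trex1, Ube2l3, and Ifng and Ifnb1 in KO-IgG replicate 1 were added after their values were seen.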

Additional observations from a re-analysis of the deposited data

Results flagged for a closer look

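Among 18 groups of values checked for a single sample far from the others, 3 held one, where chance gives about 1 in 20, and all 3 were KO-IgG replicate 1 among the 4 KO samples. Usp18 stood at 16.8 TPM there and at 132 to 138 TPM in the other 3 KO samples. The log2 ratio of Uba7 to Isg15 was -0.50 there and -3.06 to -2.64 in the others. The log2 ratio of Ube2l6 to Isg15 was -1.05 there and -2.72 to -2.45 in the others.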

How the results depend on the processing

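The 5 genes were called by limma in the averaged comparison of KO with CTRL as follows: 1 over 10 samples, 3 over 12 libraries, and 0 with no filter, quantile normalization, median centring, no trend or robust shrinkage, or without both CTRL tumours of high keratinocyte markers. It was 0 to 4 when each sample was left out in turn, with 4 without KO-IgG replicate 1 and 0 without any other. With the replicate number as a block it was 1 over the 12 libraries, against 3 without the block (all other comparisons 0 with the block, where KO-IgG against CTRL-IgG and KO-ICB against CTRL-ICB had 1 each without it). Same-numbered libraries did not deviate together (18 pairs, r -0.36 to 0.27, 5 over 0.1, 3 libraries closest to their own number). The number of genes called in all was 15, and 449 over 12 libraries, 259 with the block, 10 with a pseudocount of 0.1, 7 with median centring, 0 with quantile normalization and 0 to 273 when each sample was left out. With 12 libraries and KO-IgG replicate 1 left out, an alternative chosen after its values were seen, 4 of the 5 and 2260 genes in all (16.3%) were called. In the single comparisons 4 of the 5 were called as well, among 729 genes (5.25%) in KO-IgG against CTRL-IgG and 527 (3.80%) in KO-ICB against CTRL-ICB. In these fits KO-IgG was only the near-identical replicates 2 and 3, counted as 2 tumours. KO-ICB replicates 1 and 2 were counted singly as well. If each pair is 1 tumour, these counts of called genes are too high. In KO-IgG against CTRL-IgG and in KO-ICB against CTRL-ICB the count was 0 over 10 samples and 1 over 12 libraries, and in the second it was 2 with only the groups compared. In KO-ICB against KO-IgG it was 0, and 2 without KO-IgG replicates 2 and 3 (Isg15 at 2.19 and Usp18 at 2.93, among 221 genes or 1.59%), where the 1 KO-IgG sample left borrows the spread of the rest.

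The difference in mean TPM (exact two-sided permutation test) of Isg15 was 290.2 to 495 when each sample was left out, and no longer passed (p = 0.0714) without KO-IgG replicates 2 and 3, KO-ICB replicates 1 and 2, or KO-ICB replicate 3. Herc6 passed over 12 libraries (9.44), and Usp18 over 12 libraries (66.7) and without KO-IgG replicate 1 (86.7, the highest when each sample was left out, with 46.3 the lowest). The log2 ratio difference of Uba7 to Isg15 passed without KO-IgG replicate 1 (-0.88, against up to -0.024 without other samples), and that of Ube2l6 to Isg15 over 12 libraries (-0.84) and without that library (-1.12, against up to -0.56).

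The log2 fold change turned sign in these cases, with the range over leaving out each sample in turn. In KO-IgG against CTRL-IgG, Isg15 was at -0.18 (without KO-IgG replicates 2 and 3) to 2.17, and Usp18 at -1.28 (likewise) to 1.68, with -0.020 without CTRL-IgG replicate 2. In KO-ICB against KO-IgG, the lowest values came without KO-IgG replicate 1: -0.16 to 2.19 for Isg15, -0.16 to 0.66 for Ube2l6 and -0.036 to 2.93 for Usp18. Over 12 libraries without it they were -0.23, -0.19 and -0.044, and Herc6 was at -0.076 (without KO-ICB replicates 1 and 2) to 0.22. In CTRL-ICB against CTRL-IgG, Uba7 was at -0.19 to 0.042, above 0 when CTRL-IgG replicate 2 (0.035) or CTRL-ICB replicate 1 was left out. Herc6 was at -0.41 to 0.37, below 0 when CTRL-IgG replicate 3, CTRL-ICB replicate 2 (-0.021) or CTRL-ICB replicate 3 (-0.19) was left out, and -0.66 without both CTRL tumours of high keratinocyte markers. The interaction was lowest without KO-IgG replicate 1 for Isg15 (-0.44 to 1.91), Ube2l6 (-0.056 to 0.76) and Usp18 (-0.36 to 2.60), and over 12 libraries without it -0.52, -0.086 and -0.37. For Herc6 it was -0.30 to 0.48, below 0 without KO-ICB replicates 1 and 2, CTRL-IgG replicate 1, CTRL-IgG replicate 2 or CTRL-ICB replicate 1. The cause was not tested in any of these cases. Of 723 values under alternatives, 652 kept their sign and their side of the threshold. This total includes values that were not called at first and so could not lose a call. It is therefore no measure of how stable the calls were. For the ISG15 genes in the averaged comparison of KO with CTRL, 78 of 100 values kept both, 14 lost the call and 8 gained one. Uba7 was the only one of these genes called there over 10 samples, so all 14 losses are of its call. Depth is unknown, and 2 samples in each KO group limit what can be detected.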

Other observations

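Among CTRL tumours, the 2 with the most Isg15, CTRL-ICB replicate 1 (248 TPM) and CTRL-IgG replicate 3 (213 TPM), held the least Herc6, the ISG15 ligase, with 13.05 and 10.1 TPM against 23.3 to 29.9 TPM in the other 4. The same 2 tumours held the highest summed fibroblast markers, 3124 and 2602 TPM against 525 to 1408 TPM in the others. This was noticed after the values were seen and was not tested.

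After the group means were taken out, the genes closest to Herc6 over the 10 samples were Mnt (r = 0.995), Cd44 (0.987), Ip6k2 (0.985), Grina (0.983) and Il15 (0.982), and those closest to Usp18 were Itprid1 (0.992), Entpd3 (0.991), H2-T22 (0.99), Cldn7 (0.99) and Lad1 (0.988). Il15 for Herc6 and Cldn7 for Usp18 were also among the 5 closest before the group means were taken out. Ifit3 and Oasl1 stayed among the 5 closest to Ube2l6, while the lists of Isg15 and of Uba7 kept no gene, Irf7 and Ifng included. All 5 genes listed here for Usp18 were lower in KO-IgG replicate 1 than in any other KO-labelled library, as Usp18 was. That library thus weighs on both rankings, and their agreement is not independent.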
